A study of Mus musculus with 3 samples.

Results

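The 6 genes described here encode subunits of kainate receptors (*Grik1*, *Grik2*, *Grik3*, *Grik4* and *Grik5*) and a delta receptor (*Grid1*), and were examined for accessible chromatin in dopaminergic neurons (DNs). A peak was assigned to a gene when it overlapped the GENCODE M21 gene body or lay within 20 kb of it, which gave 104 of the 55326 peaks of the list and 6 of 21755 protein-coding genes. Of these peaks, 85 overlapped a gene body and 19 lay only in the flanks.

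The peaks came from single-nucleus ATAC-seq, in which a transposase cuts DNA that is not packed away by nucleosomes, of the midbrain, from its ventral tegmental area (VTA). The DN samples were 2 libraries from male mice of strain C57Bl/6Nl, aged 7 and 9 weeks, with no treatment named in the labels. Both were pooled by the authors in 1 list of 500-bp peaks that holds positions and no height, score or read count, so no spread between replicates can be given and no comparison was tested. The remaining sample of the series, of mouse embryonic stem cells, was not analysed here. Intervals below are 95% exact intervals (Poisson for densities, Clopper-Pearson for shares) and cover counting error only, and peaks close together are not independent. The depth behind each peak cannot be read from the list, so a stretch without a peak is one where none was called.

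All 10 DN markers examined had a peak in the gene body and at a transcription start site (TSS). The authors chose the DN nuclei by gene scores of such markers, so these peaks are no independent check. Of the markers of other cells, a gene-body peak was present at 1 of 4 genes of oligodendroglia, 2 of 3 of astrocytes, 1 of 3 of microglia and 2 of 3 of GABAergic neurons, and a peak at a TSS at 1, 0, 0 and 1 of them. The part of such nuclei in the peaks of the 6 receptor genes was not tested.

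Kainate receptors are glutamate-gated cation channels that act on both sides of the synapse, where they carry slow excitatory currents and tune transmitter release. *Grik1*, *Grik2* and *Grik3* encode the low-affinity subunits, which can form channels by themselves, whereas *Grik4* and *Grik5* encode the high-affinity subunits, which reach the surface as working channels only together with a low-affinity subunit. Delta receptors resemble the other ionotropic glutamate receptors but are best known as synaptic organizers, and *Grid1* encodes a delta receptor that binds cerebellins released from the presynaptic side.

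The DNA in front of each gene is shown first, because all 6 genes had a peak at their start. Each line gives 200 bases covered by the peak at the outermost start and lying upstream of it, from GRCm38 (the same chromosome sequence as mm10), read 5′ to 3′ on the strand of the gene. Capitals mark matches to the GC box GGGCGG and to the forkhead sequences TGTTTAC and TATTTAC, on either strand.
*Grik1* upstream, chr16:88290266-88290465, minus strand: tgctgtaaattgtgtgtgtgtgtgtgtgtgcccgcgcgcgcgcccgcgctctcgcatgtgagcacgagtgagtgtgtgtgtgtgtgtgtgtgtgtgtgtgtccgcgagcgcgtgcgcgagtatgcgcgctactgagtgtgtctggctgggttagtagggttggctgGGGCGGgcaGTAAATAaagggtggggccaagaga
*Grik2* upstream, chr10:49788767-49788966, minus strand: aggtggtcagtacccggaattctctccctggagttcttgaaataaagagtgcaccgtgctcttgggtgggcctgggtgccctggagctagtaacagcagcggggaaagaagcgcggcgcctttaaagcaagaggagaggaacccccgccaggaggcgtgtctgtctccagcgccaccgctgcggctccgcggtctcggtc
*Grik3* upstream, chr4:125490431-125490630, plus strand: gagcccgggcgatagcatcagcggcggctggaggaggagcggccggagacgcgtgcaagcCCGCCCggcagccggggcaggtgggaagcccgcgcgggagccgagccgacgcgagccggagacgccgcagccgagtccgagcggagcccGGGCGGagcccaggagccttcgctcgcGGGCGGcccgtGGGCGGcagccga
*Grik4* upstream, chr9:42944494-42944693, minus strand: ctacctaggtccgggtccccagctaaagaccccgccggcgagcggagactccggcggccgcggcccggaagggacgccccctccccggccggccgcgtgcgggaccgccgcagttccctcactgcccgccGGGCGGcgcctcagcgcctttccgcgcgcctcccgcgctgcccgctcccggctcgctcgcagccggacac
*Grik5* upstream, chr7:25072347-25072546, minus strand: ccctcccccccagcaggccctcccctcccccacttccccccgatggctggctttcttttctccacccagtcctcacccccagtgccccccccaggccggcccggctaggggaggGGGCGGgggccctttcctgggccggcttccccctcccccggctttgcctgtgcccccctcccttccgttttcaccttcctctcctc
*Grid1* upstream, chr14:34819742-34819941, plus strand: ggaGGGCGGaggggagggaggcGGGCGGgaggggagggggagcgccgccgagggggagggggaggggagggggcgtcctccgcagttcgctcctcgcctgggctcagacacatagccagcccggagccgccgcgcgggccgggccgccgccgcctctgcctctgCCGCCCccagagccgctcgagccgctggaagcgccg
A GC box, a sequence bound by Sp-family factors, was found in each stretch other than that of *Grik2*. Of all protein-coding genes, with or without a peak, 37.8% have a GC box and 3.9% a forkhead match in the 200 bases before their outermost start, but the stretches shown were taken from within peaks, so these shares are not of like sequence. The stretch of *Grik3* holds 4 GC boxes and that of *Grid1* holds 3. A forkhead match was found in the stretch of *Grik1* and in none of the other 5. *Grik5* stood apart in another way, as its stretch is 72.5% GC but holds 7 CG dinucleotides, whereas those of *Grik3* and *Grik4*, at 79.5% GC, hold 33 each. The stretch of *Grik2* overlaps *Gm48123* on the opposite strand, and those of *Grik3* and *Grid1* end short of the annotated start because their upstream peak does.

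Each of the 6 genes had a peak in its gene body, compared with 63.8% of all protein-coding genes and 93% of the 2489 protein-coding genes of at least 100 kb, a length that all but *Grik5* reach. Each also had a peak centred within 1 kb of a start of a basic transcript, compared with 56.4% of all protein-coding genes and 77.9% of those of at least 100 kb. The 6 genes differed in how much of the rest of the gene was accessible. Peaks were found from the first to the last part of *Grik3* and *Grik4* and were closely packed in *Grik5*, but were restricted to the first part of *Grik1* and *Grik2*.

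**Figure D1:**
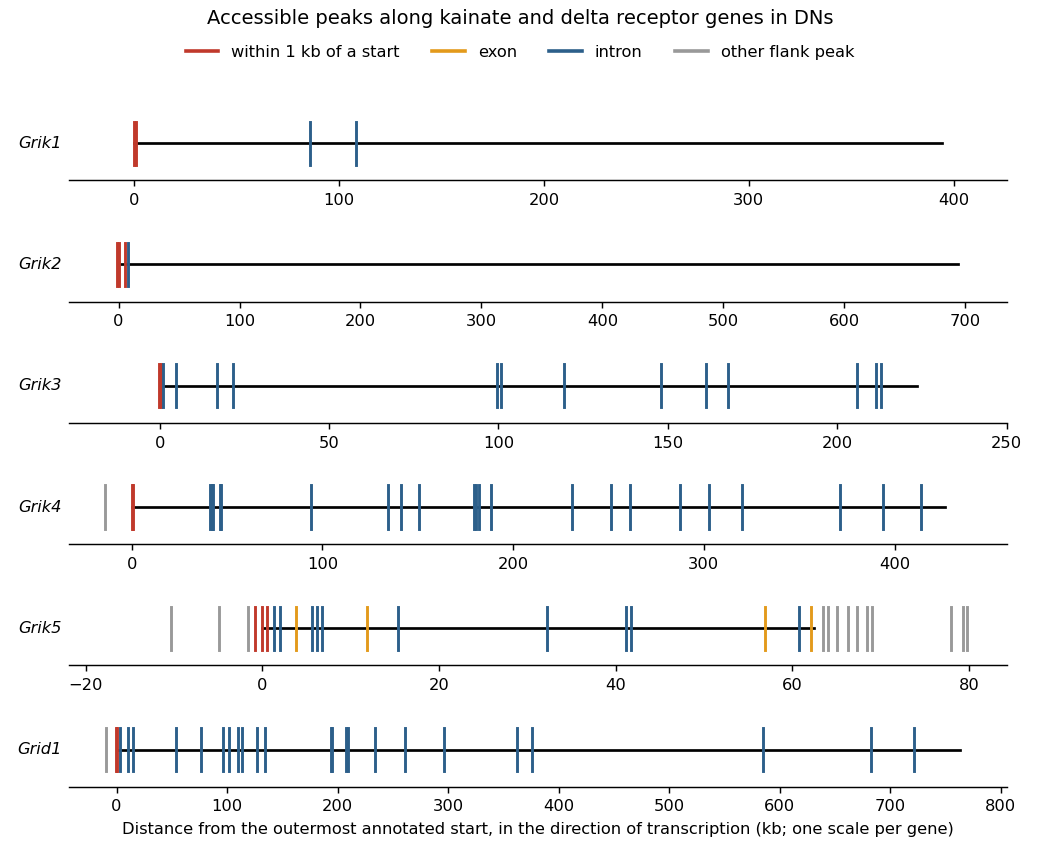
Positions of peaks along each gene, in kb from the outermost annotated start in the direction of transcription, with a separate scale for each gene; the black line is the gene body and each vertical mark is 1 peak, coloured by place. *Grik2* has no mark after 8.21 kb of its 693.9 kb, whereas the 24 peaks in the body of *Grik4* reach from its start to 413.9 kb.

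Among the low-affinity subunits, *Grik1* (ENSMUSG00000022935.16, chr16:87895900-88290265, minus strand) is 394.4 kb long and had 4 peaks, or 10.1 per Mb (2.76 to 26). Genes of a length within 1.5 times had a median of 6 peaks, and 29.4% of them had fewer than *Grik1*. A pair of its peaks lay at the start, centred 0.05 kb before and 0.61 kb after it, and 5 of its 6 annotated starts had one of them within 1 kb. The other two lay in intron 1, 85.65 and 108.45 kb from the start. Beyond them, 285.9 kb had no peak called up to the end of the gene. This stretch is 72.5% of *Grik1*, against a median of 43.7% for the longest such stretch in genes of similar length. It contains the remaining start, at chr16:88056176, from which the nearest peak was 125.6 kb away.

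*Grik2* (ENSMUSG00000056073.16, chr10:49094833-49788766, minus strand) had the lowest density of the 6 genes, with 3 peaks in 693.9 kb, or 4.32 per Mb (0.892 to 12.6). The median of genes of similar length was 7 peaks, and 13.6% of them had fewer. All 4 of its annotated starts nevertheless had a peak within 1 kb. The peak chr10:49788498-49788997 covered the outermost start. The peak chr10:49782847-49783346 covered the inner start 5.51 kb downstream and was centred 0.313 kb from the other inner start, 5.36 kb downstream, which it did not reach. The last peak of the gene body lay in intron 2, 8.21 kb from the outermost start, and a further peak lay 0.97 kb before it, within *Gm48123*. No peak was called in the remaining 685.7 kb, which is 98.8% of the gene, against a median of 38.7% in genes of similar length.

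*Grik3* (ENSMUSG00000001985.9, chr4:125490700-125714173, plus strand) carried 14 peaks in 223.5 kb, or 62.6 per Mb (34.2 to 105.1). This is more than in 89.6% of genes of similar length, whose median was 4. All parts of the gene held peaks, with 5, 4 and 5 in the first, middle and last of 3 equal parts, but they were grouped within them. Intron 1 makes up 59.3% of the gene and held 8 of the peaks, in 2 groups separated by 77.9 kb. This was its longest stretch without a peak, at 34.9% of the gene against a median of 53.2% in genes of similar length. The first group lay 0.52 to 21.78 kb from the start and the second 99.67 to 119.41 kb from it. A cluster of 3 peaks in intron 13, which is only 10.2 kb long, lay 205.7 to 212.8 kb from the start.

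Of the high-affinity subunits, *Grik4* (ENSMUSG00000032017.14, chr9:42518135-42944493, minus strand) had 24 peaks in 426.4 kb, or 56.3 per Mb (36.1 to 83.8). Genes of similar length had a median of 6 peaks, and 92.5% of them had fewer than *Grik4*. Peaks were found in 10 of its 20 introns and throughout the gene, with 10, 8 and 6 in the same 3 parts. Its longest stretch without a peak was 51.1 kb, or 12% of the gene, against a median of 42.7% in genes of similar length. Introns 1 and 3, of 125.4 and 120.4 kb, held 7 and 8 peaks. Within them lay 2 close groups, of 5 peaks between 41.12 and 47.03 kb and of 4 peaks between 179.3 and 188.3 kb from the start. The outermost start was covered by a peak, while the inner start at chr9:42808699 had its nearest peak 1.64 kb upstream, beyond the limit of 1 kb.

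*Grik5* (ENSMUSG00000003378.9, chr7:25009849-25072346, minus strand) is the shortest of the 6 genes, at 62.5 kb, and was the most densely covered. It had 16 peaks, or 256.0 per Mb (146.3 to 415.7), more than in 99% of genes of similar length, whose median was 2. Peaks covered 12.8% of its bases, compared with 0.216% to 3.13% in the other 5 genes. Of the 16 peaks, 10 lay in the first of the 3 parts, among them groups of 3 in introns 1 and 3, which are 3.47 and 2.54 kb long. All 4 exon peaks of the 6 genes were in *Grik5*, and 12 of its 16 peaks had another within 2 kb.

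The flanks of *Grik5* differed from those of the other genes as well. They held 14 of the 19 flank peaks, compared with 0 to 2 at each of the other 5 genes, but 12 of the 19 lay in the span of another gene or within 1 kb of its start. On the upstream side, 4 peaks overlapped *Zfp574*, a zinc finger gene on the opposite strand whose annotated span begins 0.221 kb from *Grik5*. The peak at the start of *Grik5* (chr7:25072097-25072596) also reached into this span. Of these peaks, only chr7:25076952-25077451 had a start of *Zfp574* within 1 kb, and the peak at the start of *Grik5* had none. Peaks in this span cannot be assigned to 1 gene by position. At the other end of the range, the first peak beyond the 20-kb limit was 386.5 kb from *Grik2* and 54.5 kb from *Grik1*.

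*Grid1* (ENSMUSG00000041078.7, chr14:34820108-35583379, plus strand), the delta receptor gene, is the longest at 763.3 kb. It had 24 peaks, as many as *Grik4*, but at a density of 31.4 per Mb (20.1 to 46.8). Genes of similar length had a median of 8 peaks, and 87.3% of them had fewer. Its peaks crowded towards the start, with 17, 4 and 3 in the 3 parts from first to last. Introns 2, 3 and 4 held 9, 4 and 7 of them, at 73.1, 49.6 and 31.1 per Mb. Of the later introns, 8, 12 and 13 held 1 peak each, at 8.28, 14.6 and 24 per Mb, and the rest held none. Its longest stretch without a peak, of 209.0 kb, ran from 376.3 to 585.3 kb, beyond which 3 peaks were called. This stretch is 27.4% of the gene, against a median of 35.7% in genes of similar length.

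The order of densities was thus *Grik5*, *Grik3*, *Grik4*, *Grid1*, *Grik1* and *Grik2*. The interval of *Grik5* did not overlap that of any other of the 6 genes. *Grik5* is also the shortest of them, and density falls with gene length, so its place in this order does not compare genes of like length. Those of *Grik3*, *Grik4* and *Grid1* overlapped one another, as did those of *Grik1* and *Grik2*. *Grik3* and *Grik4* lay above *Grik1* and *Grik2* without overlap, whereas *Grid1* overlapped *Grik1* but not *Grik2*. The division did not follow the affinity classes, since *Grik3* was close to *Grik4* and far from the other low-affinity subunits.

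The other glutamate receptor genes were read in the same way. The median density was 43.9 per Mb over the 6 genes and 31.4 over the 5 of at least 100 kb, compared with 19 (quartiles 9.01 and 38.1) over all 2489 protein-coding genes of that length and 29.2 over all protein-coding genes. AMPA receptor genes, which encode the channels of fast excitatory transmission, had a median of 23.1, from *Gria3* at 3.6 to *Gria1* at 34.5, and 4 of 4 had a peak in the gene body, compared with 93% of genes of at least 100 kb, the class of all 4. NMDA receptor genes, which encode the voltage-dependent calcium-permeable receptors, had a median of 51.4, from *Grin3b* with 0 peaks to *Grin2d* at 322.6, and 6 of 7 had one, compared with 63.8% of all protein-coding genes. Restricted to genes of at least 100 kb, the medians were 31.4 for kainate and delta, 23.1 for AMPA and 32.6 for NMDA receptor genes. Among 10 partners, which include auxiliary subunits, cerebellins, C1q-like ligands and scaffold proteins, 9 had a peak in the gene body, compared with the same 63.8%, and the median was 133.7, from *C1ql2* with 0 peaks to *Dlg4* at 359.7. These partners are short, with a median length of 14.3 kb, and density falls with gene length, so the value cannot be set beside that of the receptors.

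**Figure D2:**
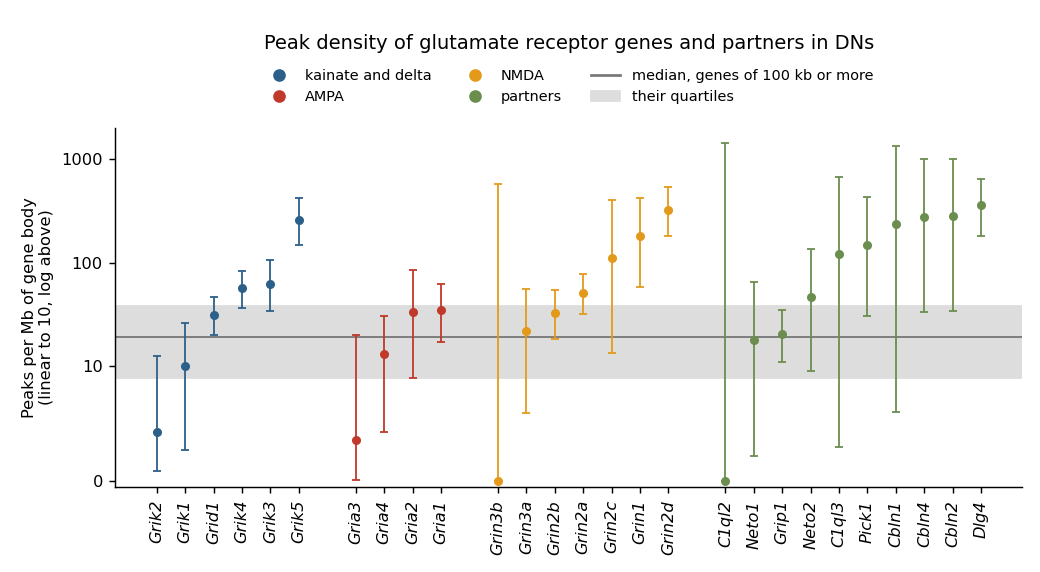
Peaks per Mb of gene body (linear to 10 and logarithmic above) for kainate and delta, AMPA and NMDA receptor genes and their partners; points are single genes, bars are 95% exact Poisson intervals, and the grey line and band are the median of 19 and the quartiles of protein-coding genes of at least 100 kb. *Grik5* (shorter than 100 kb), *Grik3* and *Grik4* lie above the band, *Grid1* and *Grik1* within it and *Grik2* below it.

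Density in the gene was set beside that of the 500 kb on either side, with peaks of the gene itself left out. The 6 genes fell in the same order in both, from *Grik5* with 98 peaks per Mb around it, through *Grik3* with 66, *Grik4* with 33, *Grid1* with 23 and *Grik1* with 15, to *Grik2* with 3. The number of other protein-coding genes in these surroundings was also highest for *Grik5* and lowest for *Grik2*, but did not follow that order between them. It was 39 for *Grik5*, 14 for *Grik3*, 9 for *Grik4*, 10 for *Grid1*, 18 for *Grik1* and 0 for *Grik2*. The GC content of the gene body followed the order of densities, at 51.5%, 50.3%, 48%, 43.4%, 39.6% and 35.6%, against quartiles of 39.7% and 45.1% in long genes. That of the surroundings fell in the same order, at 49.4%, 48.7%, 45.8%, 41.6%, 41.2% and 37.6%. The part of gene number and of GC content in these densities was not tested. The density in *Grik5* was 2.61 times that of its surroundings (1.44 to 4.46). For the other 5 genes the ratio lay between 0.676 in *Grik1* (0.163 to 2.12) and 1.71 in *Grik4* (0.965 to 2.97), and each interval included 1. The median ratio of long genes was 0.993. Across the 2489 long genes, Spearman's rho between the 2 densities was 0.46, given as a description, since neighbouring genes share their surroundings and all densities come from 1 list of unknown depth.

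**Figure D3:**
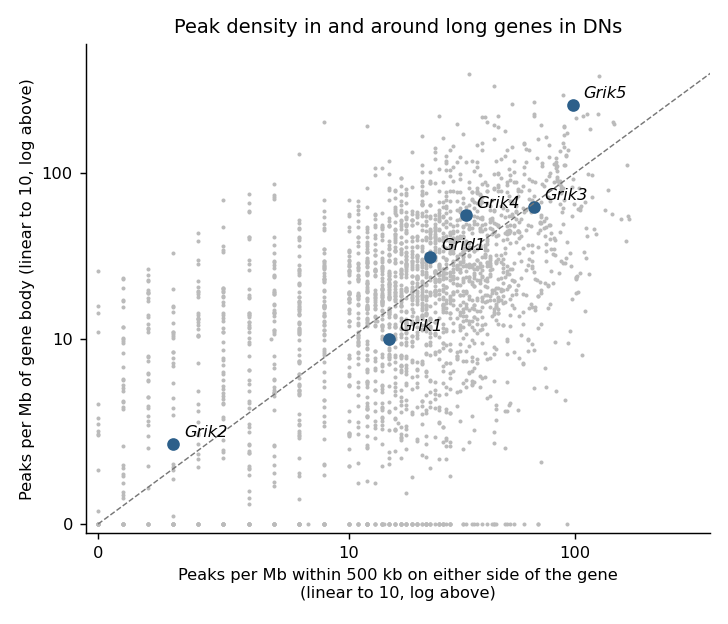
Peaks per Mb of gene body against peaks per Mb within 500 kb on either side (both axes linear to 10 and logarithmic above); grey points are protein-coding genes of at least 100 kb, blue points are the 6 receptor genes, of which *Grik5* is shorter, and the dashed line marks equal densities. *Grik2* sits at the low end of both axes and *Grik5* at the high end, above the line.

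Pooled over the 6 genes, 71 of the 85 gene-body peaks lay in introns, or 83.5% (73.9% to 90.7%), compared with 77.8% in genes of at least 100 kb. A further 10 lay within 1 kb of a start, or 11.8% (5.79% to 20.6%), compared with 18.9%. The first of the 3 equal parts of each gene held 57.6% of the peaks (46.4% to 68.3%) and the last part 21.2% (13.1% to 31.4%), compared with 40% and 32.9% in long genes. *Grid1* gave 17 and *Grik4* and *Grik5* 10 each of the 49 peaks in the first part, so the pooled share describes these 3 genes above all. A neighbouring peak within 2 kb was present for 40% of the peaks, compared with 36.4% in long genes. This pooled share hides a range from 0% in *Grik2* and 16.7% in *Grid1* to 75% in *Grik5*, which is shorter than 100 kb.

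Start and intron peaks differed in base composition. The 14 peaks within 1 kb of a start had a median GC content of 65.2% and a median CpG ratio (CG dinucleotides observed over those the base content would give) of 0.72, close to 62.2% and 0.75 in all peaks at protein-coding starts. The 71 intron peaks had medians of 51.2% and 0.23, compared with 49.4% and 0.24 in all peaks away from starts. *Grik5* had a median CpG ratio of 0.33 over its 3 start peaks, at a median GC content of 67.4%, while the start peaks of the other 5 genes had medians per gene of 0.66 to 0.84. The lowest ratio of a single start peak was 0.10, at 48.6% GC, in the *Grik2* peak centred 0.97 kb before its outermost start.

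**Figure D4:**
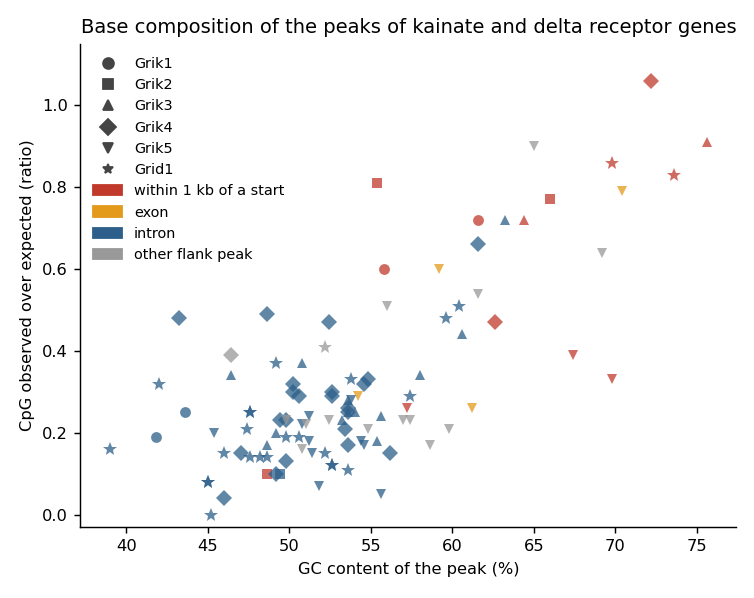
CpG observed over expected (a ratio) against GC content (%) of the 104 peaks; symbols give the gene and colours the place. Start peaks (red) gather at high values of both, with a median of 65.2% GC and a ratio of 0.72, and intron peaks (blue) at a median of 51.2% and 0.23, while the 3 start peaks of *Grik5* have a ratio of 0.26 to 0.39 and 1 start peak of *Grik2* has a ratio of 0.10.

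Intron peaks were searched for short sequences bound by factors of neurons and of DNs. Of 10 motifs counted, the NBRE (AAAGGTCA), a sequence bound by single receptors of the Nr4a family, to which the DN factor *Nr4a2* belongs, was present in 7 of the 71 intron peaks, or 9.86% (4.06% to 19.3%). It was present in 5.12% of all peaks away from protein-coding starts, a value within this interval. All 7 matches lay within the central 200 bp of their peak, where 2.84% of all peaks away from starts have one. The matches are shown with 26 bases on each side, read 5′ to 3′ on the strand where the motif, in capitals, reads AAAGGTCA. Other matches in these stretches are in capitals too, an E-box CAGCTG and a bicoid-type sequence (TAATCC on the other strand), both in *Grid1*.
*Grik1*, intron 1, chr16:88181866-88181925, plus strand: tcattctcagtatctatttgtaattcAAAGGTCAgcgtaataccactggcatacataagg
*Grik4*, intron 3, 180.3 kb from the start, chr9:42764195-42764254, minus strand: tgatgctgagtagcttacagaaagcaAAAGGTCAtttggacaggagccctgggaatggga
*Grik4*, intron 3, 230.8 kb from the start, chr9:42713714-42713773, minus strand: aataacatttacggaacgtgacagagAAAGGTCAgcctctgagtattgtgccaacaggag
*Grik4*, intron 9, chr9:42624355-42624414, plus strand: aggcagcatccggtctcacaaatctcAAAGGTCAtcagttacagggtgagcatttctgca
*Grid1*, intron 3, 194.1 kb from the start, chr14:35014133-35014192, minus strand: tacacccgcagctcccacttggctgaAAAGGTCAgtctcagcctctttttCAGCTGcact
*Grid1*, intron 3, 194.9 kb from the start, chr14:35014909-35014968, minus strand: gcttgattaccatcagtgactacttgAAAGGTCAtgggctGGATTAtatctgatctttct
*Grid1*, intron 4, chr14:35182196-35182255, minus strand: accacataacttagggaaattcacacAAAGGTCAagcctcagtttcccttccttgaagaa
Of the 7 matches, 3 lay in *Grik4*, 3 in *Grid1* and 1 in *Grik1*. None was found in the intron peaks of *Grik2*, *Grik3* or *Grik5*, which number 1, 13 and 10. The distance from the centre of the peak was 12 to 85 bp. The matches lay on the strand of the gene in 2 cases, both in intron 3 of *Grik4*, and on the other strand in 5. In *Grid1*, the first pair of matches came from adjacent peaks of intron 3, so that they may not be separate regions.

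The forkhead sequences, which factors such as *Foxa1* and *Foxa2* bind, were found in 16 of the 71 intron peaks, or 22.5% (13.5% to 34%), compared with 15.8% of all peaks away from starts. Of these peaks, 7 were in *Grik4*, 4 in *Grik3*, 3 in *Grid1* and 2 in *Grik5*. The E-boxes CAGCTG and CAGATG, which basic helix-loop-helix factors bind, were each in 30 peaks, or 42.3%, compared with 33.2% and 37.8%. The AP-1 sequence TGANTCA was in 8.45%, compared with 14.7%, and the homeobox core TAATTA in 7.04%, compared with 8.94%. TAATCC was in 16.9%, compared with 15.7%, and GGGCGG in 11.3%, compared with 15.9%. The cAMP response element TGACGTCA was in 1 intron peak, of *Grik3*, or 1.41% (0.0357% to 7.6%), compared with 0.828%. The CTCF consensus was in 3, of *Grik3*, *Grik4* and *Grid1*, or 4.23% (0.88% to 11.9%), compared with 6.97%. Over whole peaks, the share in all peaks away from starts lay within the interval of the intron peaks for each of the 10 motifs. In the central 200 bp it lay below the interval for 2 motifs, the NBRE, as given above, and the forkhead sequences, which 15.5% of the intron peaks (8% to 26%) and 7.84% of all peaks away from starts held there, and within it for the other 8. At the starts, 9 of the 14 peaks held a GC box, or 64.3% (35.1% to 87.2%), compared with 70.4% of all peaks at protein-coding starts. A match says only that these letters are present, and the absence of one says nothing about a factor.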

How the data were processed

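The 2 DN libraries were mapped to mm10 with Cell Ranger ATAC, and the authors used ArchR to remove doublets, filter and cluster nuclei, choose the DN cluster by gene scores and merge pseudobulk peaks by iterative overlap. A filter on peaks by their share of nuclei is described in the methods, and whether it was applied to this list is not given in the sources used here. The deposited file gives chromosome, start and end of each peak, which are positions and hold no signal, score or count. Starts were read as counted from 0 and are printed from 1.

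Peaks were assigned to GENCODE M21 genes by an overlap of at least 1 bp, and called at a TSS when centred within 1 kb of a start of a basic transcript. Peaks away from a start were placed in exons of basic transcripts or in introns. Introns were numbered in 1 protein-coding reference transcript per gene, chosen by its APPRIS tag and then its length. Densities are peaks per Mb of gene body. Motifs were searched on both strands of whole peaks. A match to the CTCF consensus can contain the E-box CAGATG, and no other motif searched can contain another. Sequences were read from GRCm38 (RefSeq). Upstream stretches of 200 bases are shown in place of peak centres, so that no transcribed sequence of the gene is included. Counting was checked on simulated peaks. Scripts used Python 3.11.15, numpy 2.4.6, scipy 1.17.1, pysam 0.24.0 and matplotlib 3.10.9.

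The genes named were the 6 receptor genes, genes upstream of *Grik5* and *Grik2* whose span or start their peaks overlap, and the highest and lowest density of each comparison list. These members, lists and motifs were chosen with earlier results of these data known. The 500-kb surroundings, stretches without a peak, intron densities, groups of close peaks and the intron sequences shown were chosen after the peaks were seen. Alternatives tried were the overlap rule, gene model, start coordinate, flank width, TSS distance, annotated transcripts, range of similar lengths, minimum length of long genes and width searched for motifs. The downstream flank peaks of *Grik5* are counted but not described further, as 1 result that they bear on is not reported here.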

Additional observations from a re-analysis of the deposited data

How the results depend on the processing

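Alternatives were run for the peak counts and densities of the 6 genes, their place among genes of similar length, the count of genes with a start peak, the intron share, the median density set against long genes and the motif counts, 96 values in all, and not for the other values. Of the 86 that are not motif counts, 84 stayed within the limits set for a change (1.5 times for a count, density or ratio, and the 95% exact binomial interval of the reported value for a share). Some of these alternatives could hardly change a value, such as the start coordinate, which moves by 1 bp. The share of genes of similar length with fewer peaks than *Grik1* was 33.5% with lengths within 2 times instead of 29.4%, and a flank of 50 kb gave *Grik5* 48 peaks instead of 30. The median density of all 6 genes was 2.31 times that of protein-coding genes of at least 100 kb, 2 times at a minimum of 50 kb and 3.4 times at 300 kb, with *Grik5* (at 100 kb) and *Grik5* and *Grik3* (at 300 kb) kept although shorter than the minimum. With only the members that meet it, an alternative chosen after seeing the data, the ratio was 1.66 at 100 kb (5 genes) and 1.61 at 300 kb (4 genes). Restricting motifs to the central 200 bp of a peak left all 7 NBRE matches and lowered the count of 6 other motifs by more than 1.5 times. No paired analysis was made because both DN libraries were pooled in the 1 list read here, with no value per library, and for the same reason no library was left out. The paper states that aligned reads and signal tracks of DNs are available too, and these were not read. The list gives no depth, so weak accessibility in stretches without a peak cannot be told apart from its absence.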
